A study of Homo sapiens with 22 samples.

Results

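The genes described here are 9 of the 15797 in the deposited table: the zinc-finger factors EGR1, EGR2 and EGR3, their corepressors NAB1 and NAB2, the orphan nuclear receptors NR4A1, NR4A2 and NR4A3, and the serum response factor SRF. They were taken by gene symbol, as a family, but the family was chosen by how it differed between the clones that carry B-domain deleted factor VIII and those that carry the full-length protein. The differences of these 9 genes between those groups are therefore given as a description, with no p-value, and support nothing. All 9 were found in the table and all passed the filter on low values that left 15611 genes.

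The study compared B-domain deleted with full-length coagulation factor VIII to learn what the deletion does to secretion. RNA came from HEK293 clones, a human embryonic kidney line, grown without treatment to partial confluency. The BDD group had 6 clones (numbers 1, 2, 7, 12, 13 and 27; genotype B-domain deleted FVIII) with 12 libraries, and the FL group had 4 clones (numbers 4, 7, 9 and 10; genotype full-length FVIII) with 8 libraries. Another line, with 2 libraries, has HEK 28 in its titles and had the full-length genotype label, so it was kept apart as HEK 28. The cell line field read HEK28 for all libraries, and BDD clone 2 was titled "oldbdd", a word the labels do not explain. Each BDD or FL line is a clone, so a difference between the groups is a difference between 6 and 4 clones, and what arose on cloning cannot be told apart from the transgene. Each clone had a library a and a library b, which the labels do not assign to separate cultures. Values are log2 CPM (read counts scaled to library size) as deposited, with a prior of 0.367 CPM included, and a clone's value is the mean of its libraries.

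EGR1, EGR2 and EGR3 are transcribed within minutes of a growth factor, stress or calcium signal, and their products then bind GC-rich sites in other genes. SRF, bound to CArG boxes with cofactors of the ELK family that ERK phosphorylates, is the classical activator of EGR1 and FOS, while NR4A genes are classical targets of cyclic AMP and calcium signals through CREB and MEF2. EGR proteins induce NAB2, which with NAB1 holds them in check, and NR4A receptors bind DNA without a known ligand, alone or, for NR4A1 and NR4A2, with RXR.

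Depth was 4951081 to 6197084 reads per library. In every clone, the libraries a and b differed beyond sampling noise, with a chi-square per gene of 46.4 in BDD clone 2, 19.8 in BDD clone 12 and 5.82 to 13.2 in the other clones. Without BDD clone 2 the log2 differences given below were 2.23 for EGR1, 3.08 for EGR2 and 1.16 for NR4A1, and without BDD clone 12 they were 2.19 for EGR1, 2.95 for EGR2 and 1.16 for NR4A1. Over all genes, 2506 rose in BDD clones (16.1% of 15611) and 2574 fell (16.5%; limma, adjusted p below 0.05). All 8 HEK293 marker genes examined were in the table, NEFM at 10.25 log2 CPM in BDD clones and 12.04 in FL clones among them. Of 14 markers of blood, vessel, liver, muscle and glial cells, 4 were in the table. F8 averaged 5.44 ± 2.18 log2 CPM in BDD clones and 7.55 ± 0.35 in FL clones (SD, n = 6 and 4), and was 8.90 in HEK 28. The B-domain deleted transcript is shorter, so these levels are not like for like.

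The promoters of EGR1, EGR2, NR4A3 and SRF are shown because they hold the sites through which immediate early genes are classically switched on. They run from 250 bases before to 50 bases after a listed start and come from RefSeq (GRCh38.p14), each read 5′ to 3′ on the strand of its gene. Capitals mark CArG boxes and the short CRE TGACG, or CGTCA where the site is on the other strand. The EGR1 window is chr5:138465229-138465528 on the plus strand, the EGR2 window is chr10:62816317-62816616 on the minus strand at the third of 3 listed starts, the NR4A3 window is chr9:99821635-99821934 on the plus strand, and the SRF window is chr6:43171019-43171318 on the plus strand at the first of 2 listed starts.
EGR1: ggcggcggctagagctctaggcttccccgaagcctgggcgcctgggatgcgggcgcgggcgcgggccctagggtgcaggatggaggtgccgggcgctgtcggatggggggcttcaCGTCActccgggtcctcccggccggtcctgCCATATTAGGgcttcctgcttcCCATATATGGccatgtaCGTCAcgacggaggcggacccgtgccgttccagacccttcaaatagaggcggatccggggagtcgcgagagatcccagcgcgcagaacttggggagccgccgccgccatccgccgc
EGR2: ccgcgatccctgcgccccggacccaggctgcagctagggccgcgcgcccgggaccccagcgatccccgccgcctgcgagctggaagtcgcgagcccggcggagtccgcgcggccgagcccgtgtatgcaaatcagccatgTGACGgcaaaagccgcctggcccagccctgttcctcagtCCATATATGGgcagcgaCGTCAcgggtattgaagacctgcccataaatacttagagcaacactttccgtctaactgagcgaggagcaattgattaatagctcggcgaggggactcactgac
NR4A3: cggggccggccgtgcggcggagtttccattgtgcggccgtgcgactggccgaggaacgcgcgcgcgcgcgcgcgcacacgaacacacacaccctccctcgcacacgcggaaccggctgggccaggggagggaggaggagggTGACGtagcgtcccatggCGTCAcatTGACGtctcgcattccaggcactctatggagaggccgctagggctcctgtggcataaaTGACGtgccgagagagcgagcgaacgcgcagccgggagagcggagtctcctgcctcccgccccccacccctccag
SRF: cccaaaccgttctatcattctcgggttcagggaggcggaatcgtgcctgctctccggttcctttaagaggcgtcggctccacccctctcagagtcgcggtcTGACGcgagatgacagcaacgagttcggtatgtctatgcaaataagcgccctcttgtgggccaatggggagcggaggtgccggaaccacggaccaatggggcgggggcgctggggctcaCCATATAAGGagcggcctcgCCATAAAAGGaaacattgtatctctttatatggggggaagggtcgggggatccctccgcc

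Promoters were listed for 7 of the 9 genes, in 13 windows (not for EGR3 and NR4A2), and a CArG box was in 3 of the 13 windows, each of a different gene. The EGR1 window held 2, from -105 to -96 and from -83 to -74 relative to the start, the EGR2 window held 1 from -71 to -62, and the SRF window held 2 from -30 to -21 and from -10 to -1. A CArG box was in 1.29% of 35116 RefSeq promoters of the same length. The short CRE TGACG was in 7 of the 13 windows, some of which overlap, and in 24.6% of all promoters, and the NR4A3 window held 4 of them between -109 and -21. The EGR sites GCGTGGGCG and GCGGGGGCG were in 0.795% and 5.07% of all promoters. NAB1 held both near its first start, NAB2 held the second at -62, and SRF held the second at -49. Both strands were searched, and NR4A1 windows held none of these letters, nor the full CRE TGACGTCA (1.85% of all promoters), the AP-1 site TGANTCA (7.71%) or the NR4A site AAAGGTCA (1.22%). The 2 NR4A1 windows lie at 52022582 to 52022881 and 52037465 to 52037764 of chromosome 12, and the gene runs on to 52059507. Sequence outside the windows was not searched, so a lack of matches holds for the windows alone. A match is a run of letters and not evidence of binding.

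All EGR genes were far higher in BDD clones. EGR1, which encodes the most widely expressed factor of the family (ENSG00000120738, chromosome 5, 138465490 to 138469315, GENCODE 29 on GRCh38), had a lowest value of 10.30, a median of 10.84 and a highest value of 11.03 log2 CPM in the 6 BDD clones. In the FL clones it had 8.79, 8.57, 8.65 and 8.04 log2 CPM in clones 4, 7, 9 and 10. HEK 28 had 7.67. The lowest BDD clone, number 13, lay 1.51 above the highest FL clone, and no library of a BDD clone overlapped a library of an FL clone. The difference was 2.23 on the log2 scale (SE 0.17), or 4.69-fold. In bulk samples such as these, fewer cells with the transcript and less RNA per cell cannot be told apart.

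EGR2, known for driving myelination in Schwann cells (ENSG00000122877, chromosome 10, 62811996 to 62919900), was near the floor in FL clones. BDD clones had from 27 to 107 reads per library and a lowest, median and highest clone value of 2.79, 3.46 and 4.16 log2 CPM. FL clones had 1.25, 0.25, 0.34 and -0.49 log2 CPM in clones 4, 7, 9 and 10, from 1 to 15 reads per library. HEK 28 had 0 reads in library a and 3 in library b, where a count of 0 allows up to 3 reads. BDD clones thus lay above all FL clones, by at least 1.54 log2. The difference was 3.10 (SE 0.34), or 8.56-fold with the prior, and the ratio of mean CPM without the prior was 10.7, since the prior pulls low values together.

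EGR3, which in mice is needed for muscle spindles (ENSG00000179388, chromosome 8, 22687659 to 22693302), had the widest gap between groups among the 9 genes. Its lowest, median and highest values were 4.22, 4.63 and 4.72 log2 CPM in BDD clones. FL clones 4, 7, 9 and 10 had 1.49, 1.99, 1.90 and 1.63, and HEK 28 had 0.76. The 2.23 log2 between the lowest BDD and the highest FL clone exceeded the spread of 0.51 among BDD clones and 0.50 among FL clones. The difference was 2.82 (SE 0.17), or 7.04-fold. EGR3 shares 164 exon bases with AC055854.1 on the opposite strand, and no strand setting is given for the counting, so reads of the overlap cannot be assigned.

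The fourth family member, EGR4, is not among the 9 genes and was looked at after the values were seen. It had from 1 to 23 reads in each of the 12 BDD libraries, 75 in all. It had 2 reads over the 8 FL libraries, both in library b of clone 10, and 0 in both HEK 28 libraries. It failed the filter on low values, so no difference is given for it. WT1, a zinc-finger relative that binds similar GC-rich sites, fell: it averaged 2.37 ± 0.40 log2 CPM in BDD clones and 3.64 ± 0.38 in FL clones (SD, n = 6 and 4; log2 difference -1.27, SE 0.25, limma adjusted p = 0.00155).

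The clones of both groups overlapped for each corepressor, and neither gene was called. NAB2, itself an EGR target and the usual feedback brake, had a lowest, median and highest value of 1.86, 2.53 and 3.18 log2 CPM in BDD clones. FL clones 4, 7, 9 and 10 had 2.68, 2.54, 2.21 and 2.68, and HEK 28 had 2.36. All FL values lay inside the BDD range. The difference was 0.0088 (SE 0.25), and it lay between -0.18 and 0.24 over the alternative analyses, and so changed sign.

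NAB1, the more constant corepressor, had 4.14, 4.43 and 4.84 log2 CPM as lowest, median and highest BDD clone values. FL clones 4, 7, 9 and 10 had 4.29, 4.42, 4.07 and 4.04, and HEK 28 had 4.08. The groups overlapped and the difference was 0.27 (SE 0.16). NAB2 shares 69 exon bases with STAT6 and NAB1 shares 186 with AC006460.1, in each case on the opposite strand. Of 13 genes of the NuRD complex, the chromatin remodeller that NAB proteins recruit, 1 rose (GATAD2B, log2 difference 0.55, limma adjusted p = 0.00691) and 4 fell. MBD2, a methyl-DNA binding subunit, fell by 0.57 (limma adjusted p = 0.00605) and HDAC1, a histone deacetylase, fell by 0.35 (0.00924), although HDAC1 no longer passed once trends on level, GC content and length were removed (0.359). Over all genes, 16.1% were higher and 16.5% lower. The 4 that fell were 2 without BDD clone 13 or FL clone 9, near the share of all genes lower. The median of the 13 was -0.19, against 0.0087 over all genes.

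All NR4A receptors were higher in BDD clones, with smaller log2 differences than the EGR genes. NR4A3, also known as NOR1 (ENSG00000119508, chromosome 9, 99821855 to 99866891), had 2.70, 3.32 and 3.54 log2 CPM as lowest, median and highest BDD values. FL clones 4, 7, 9 and 10 had 1.25, 1.35, 1.5 and 1.05, and HEK 28 had 0.48. Clones did not overlap, with 1.20 log2 between the nearest pair, and libraries did not overlap either. The difference was 1.93 (SE 0.22), or 3.82-fold with the prior and 4.21-fold as a ratio of mean CPM without it.

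NR4A2, also known as NURR1 and with a part in dopamine neurons (ENSG00000153234, chromosome 2, 156324432 to 156342348), had 3.92, 4.15 and 4.32 log2 CPM as lowest, median and highest BDD values. FL clones 4, 7, 9 and 10 had 2.53, 2.96, 3.08 and 2.12. HEK 28 had 3.20, above every FL clone and below every BDD clone. The SD was 0.15 among BDD clones and 0.44 among FL clones, and the groups did not overlap. The difference was 1.45 (SE 0.20), or 2.74-fold.

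NR4A1, also called NUR77 (ENSG00000123358, chromosome 12, 52022832 to 52059507), was the least separated of the receptors. BDD clones had 2.20, 3.38 and 4.09 log2 CPM as lowest, median and highest values, and the lowest, clone 13, lay inside the FL range. FL clones 4, 7, 9 and 10 had 2.20, 1.83, 2.40 and 1.73, and HEK 28 had 1.52. The difference was 1.22 (SE 0.31), or 2.33-fold, and it was 1.64 from libraries a alone and 0.81 from libraries b alone. NR4A1 shares 754 exon bases with AC025259.3 on the opposite strand.

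SRF, the classical activator of EGR1 (ENSG00000112658, chromosome 6, 43171299 to 43181507), was not called in either direction. It had 7.82, 8.10 and 8.25 log2 CPM as lowest, median and highest BDD values, and 8.32, 8.29, 8.26 and 8.32 in FL clones 4, 7, 9 and 10. HEK 28 had 8.40. Every BDD clone was below every FL clone, but the nearest pair was 8.25 in BDD clone 13 and 8.26 in FL clone 9, and the libraries overlapped. The difference was -0.21 (SE 0.10). It was -0.06 from libraries a alone and -0.36 from libraries b alone.

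**Figure D1:**
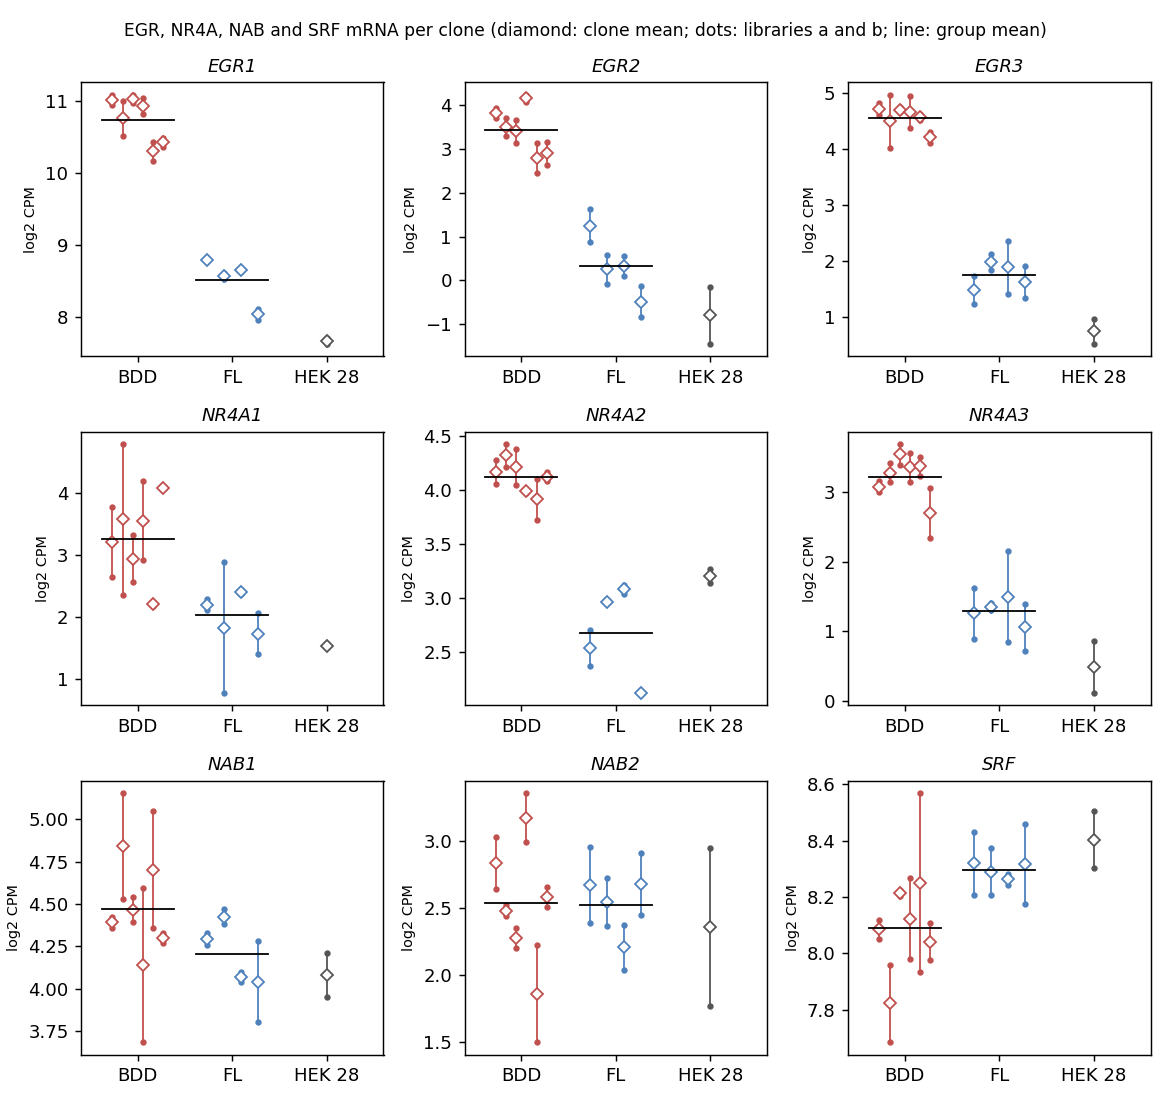
Log2 CPM (y axis) of the 9 genes in BDD clones (left), FL clones (middle) and HEK 28 (right). Diamonds are clone means, dots joined by a line are libraries a and b, and the black line is the group mean; the BDD clones of EGR1 lie between 10.30 and 11.03 and the FL clones between 8.04 and 8.79.

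By the test over all genes, 6 of the 9 genes were higher in BDD clones at an adjusted p below 0.05 (all EGR and NR4A genes), where 16.1% of all genes were, and 0 of the 9 were lower, where 16.5% were. In 5 of the 9 every BDD clone was above every FL clone (10.7% of all genes), and in 1, SRF, every BDD clone was below (12.0%). HEK 28 lay below all FL clones for 5 of the 9 (EGR1, EGR2, EGR3, NR4A1 and NR4A3; 21.0% of all genes) and above all for 2 (NR4A2 and SRF; 21.0%). The comparison of HEK 28 with FL clones and that of BDD with FL clones share the FL clones. As the BDD and FL values chose the genes, nothing is read from the first counts. The median log2 difference of the 9 was 1.45, against 0.0087 over all genes. EGR2 ranked 14, EGR3 23, EGR1 82, NR4A3 167 and NR4A1 845 in order of log2 difference among the 15611 genes.

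**Figure D2:**
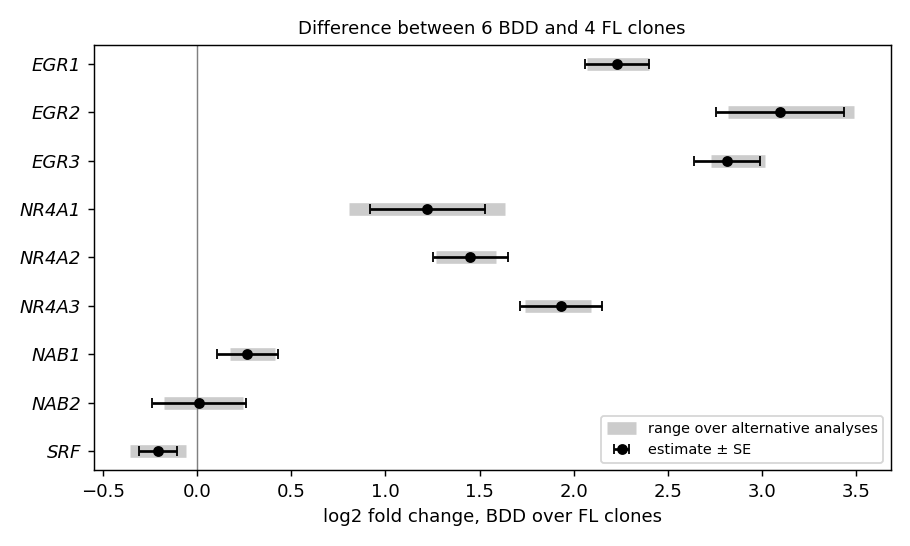
Log2 difference, BDD minus FL, of each gene (points, with the SE as whiskers) and its range over the alternative analyses (grey bars). The ranges of the EGR and NR4A genes stay above 0, down to 0.81 for NR4A1, and that of NAB2 runs from -0.18 to 0.24.

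Divided by exon length, EGR1 was the most abundant of the 9 mRNAs in both groups, at 559.7 RPKM (reads scaled to exon length and depth) in BDD clones and 118.4 RPKM in FL clones. SRF was the next, at 65.5 in BDD clones and 75.0 in FL clones. EGR3 had 4.92 in BDD clones and 0.640 in FL clones, and EGR2 had 3.04 in BDD clones and 0.285 in FL clones. NR4A2 was the most abundant receptor, at 4.35 in BDD clones and 1.57 in FL clones. NR4A1 had 1.54 in BDD clones and 0.561 in FL clones, and NR4A3 had 1.46 in BDD clones and 0.346 in FL clones. Of the corepressors, NAB1 had 4.58 in BDD clones and 3.74 in FL clones, and NAB2 had 1.91 in BDD clones and 1.84 in FL clones. The differences in level between genes were not tested.

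Within groups the relations between the genes were uneven. Over the deviations of the 10 BDD and FL clones from their group mean, EGR1 and EGR2 had a Pearson r of 0.86, and EGR3 and NR4A3 had 0.70. EGR1 and NR4A1 had 0.28, NR4A1 and NR4A3 had -0.44, and NR4A1 and SRF had -0.64. These are descriptions over 10 clones whose values share library scaling. BDD clone 13 was lowest among the BDD clones for EGR1, EGR2, NAB2, NR4A1 and NR4A2, whereas BDD clone 27 was lowest for EGR3 and NR4A3 and highest for NR4A1.

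BDD clones also differed widely in F8, which was 2.10 log2 CPM in clone 13, 3.75 in clone 7, and 5.45 to 7.74 in the other BDD clones. The choice of the genes did not use this spread, so the relation of F8 to each of the 9 was tested over the 6 BDD clones (9 relations, exact two-sided permutation tests, smallest possible p 0.0028). NAB2 had the closest relation, with r = 0.93 (exact p = 0.0097, adjusted 0.0875) and Spearman's rho = 0.89 (exact p = 0.0333, adjusted 0.15). EGR2 had r = 0.80 (exact p = 0.0597, adjusted 0.269) and rho = 0.89 (exact p = 0.0333, adjusted 0.15), and EGR1 had r = 0.59 (exact p = 0.212, adjusted 0.478) and rho = 0.43 (exact p = 0.419, adjusted 0.539). No relation passed the adjusted threshold. Without clones 13 and 7, the farthest from the median F8, r over the other 4 clones was 0.75 for NAB2, 0.91 for EGR2 and 0.96 for EGR1, and changed for the other genes as well. EGR3 had 0.97 over these 4 clones and 0.10 over all 6. The sign changed for NR4A1 (-0.89 over 4 clones and 0.68 over 6), NR4A2 (-0.34 and 0.33), NR4A3 (0.60 and -0.33) and SRF (0.51 and -0.54), so these relations rest on clones 13 and 7. BDD clone 7 had the highest EGR1 of all clones, with F8 at 3.75. FL clones had 7.11 to 7.87 log2 CPM of F8 and 8.04 to 8.79 of EGR1. F8 levels are not like for like between the groups, since the B-domain deleted transcript is shorter. The relation between the groups was not tested.

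The genes most like EGR1 over the 11 clone values, among 11303 with a mean of at least 2 log2 CPM, were JUND and FOSB, AP-1 subunits, each with r = 0.98, and TNFSF9, the ligand of 4-1BB, with r = 0.97. For EGR2 they were TNFSF9, MACROD2, an ADP-ribose hydrolase, and JUND, each with r = 0.97. For NR4A1 they were FOS (0.96), the pseudogene RPL21P16 (0.94; its reads may belong to near-identical copies of RPL21) and IER5 (0.94). These values carry the difference between the groups, which chose EGR1, EGR2 and NR4A1.

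With the group means taken out, over 10 clones, other genes led. They have the highest of 11303 values of r, and these values were not tested. The nearest to EGR1 were RAVER1 (0.89), ZNF394 (0.88) and SUPV3L1 (0.85), and to EGR2 ZNF394 (0.89), CNOT10 (0.84) and HUS1 (0.84). The nearest to NR4A1 were SMIM15, GTF2H1, a subunit of the transcription factor TFIIH, and MAPK9, the kinase JNK2, each with r = 0.98. Within groups, clones high in NR4A1 were thus high in these 3 genes, although SMIM15 averaged 3.35 ± 0.61 log2 CPM in BDD clones and 4.45 ± 0.36 in FL clones (SD, n = 6 and 4), the opposite order to NR4A1.

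Libraries a and b of a clone gave a further measure that clone means do not hold, and it was examined after the values were seen. EGR1 differed between the libraries of a clone by at most 0.48 log2 and NR4A1 by up to 2.44. In BDD clone 2 NR4A1 was 4.79 in library a and 2.36 in library b, and in FL clone 7 it was 0.77 in library a and 2.88 in library b. FOS moved with it: BDD clone 2 had 8.36 and 6.35, and FL clone 7 had 3.28 and 4.42, in libraries a and b.

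Over the 11 clones, the a minus b differences of NR4A1 and FOS had r = 0.91 (permutation p = 0.00012, adjusted 0.00135) and rho = 0.82 (permutation p = 0.0032, adjusted 0.023), with adjustment over 18 relations of EGR1, EGR2 and NR4A1 to the genes named above. NR4A1 and SMIM15 had r = 0.91 (permutation p = 0.00015, adjusted 0.00135) and rho = 0.81 (permutation p = 0.00383, adjusted 0.023). MAPK9 had r = 0.82 (permutation test, adjusted 0.00598) and GTF2H1 0.83 (adjusted 0.00882), but their rho of 0.67 and 0.60 did not pass (permutation test, adjusted 0.101 and 0.143). Without the 2 clones farthest from the median NR4A1 difference, r was 0.83 for FOS, 0.74 for SMIM15, 0.75 for MAPK9 and 0.61 for GTF2H1. BDD clone 2, whose libraries also differed most over all genes, is among those points, and the part of that difference in the relation was not tested.

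For EGR1, the relations of library differences to FOSB and JUND did not pass. FOSB had r = -0.25 (permutation p = 0.467, adjusted 0.746) and rho = -0.28 (permutation p = 0.404, adjusted 0.605), with r = 0.12 without the 2 farthest clones. JUND had r = 0.01 (permutation p = 0.968, adjusted 0.968) and rho = -0.05 (permutation p = 0.902, adjusted 0.925), but r = 0.67 without the 2 farthest clones, so its value rests on those clones. The library differences of EGR1 ran opposite to those of RAVER1, with r = -0.92 (permutation p = 0.00029, adjusted 0.00174), rho = -0.90 (permutation p = 0.00036, adjusted 0.00648) and r = -0.86 without the 2 farthest clones, although RAVER1 was the gene most like EGR1 between clones within groups. ZNF394, also like EGR1 between clones, had r = -0.63 (permutation p = 0.033, adjusted 0.099) and rho = -0.75 (permutation p = 0.0104, adjusted 0.0468), with r = -0.64 without the 2 farthest clones. By r, 4 of 6 relations passed for NR4A1, 1 of 6 for EGR1 and 0 of 6 for EGR2, and by rho 2 of 6 for NR4A1, 2 of 6 for EGR1 and 0 of 6 for EGR2 (permutation test, adjusted p below 0.05).

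**Figure D3:**
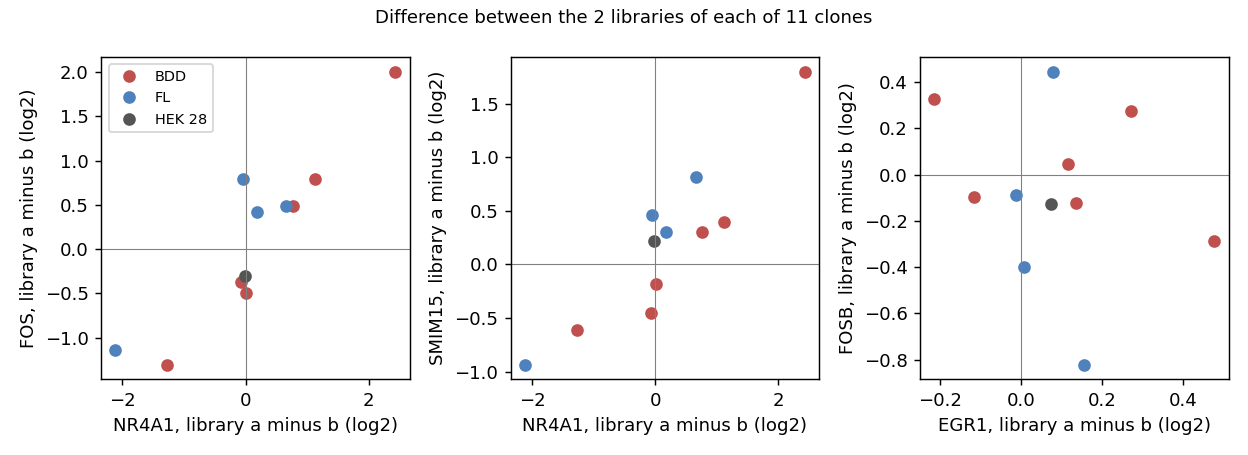
Library a minus library b in log2 CPM for 11 clones: FOS against NR4A1, SMIM15 against NR4A1 and FOSB against EGR1, with BDD, FL and HEK 28 points. The NR4A1 differences run from -2.11 to 2.44 and FOS and SMIM15 follow them, while the EGR1 differences stay between -0.21 and 0.48.

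The other immediate early genes rose more often than they fell in BDD clones. Of 29 tested, 16 rose, 2 fell and 11 did not pass, beside 16.1% of all genes higher and 16.5% lower, with a median log2 difference of 0.73 against 0.0087 over all genes. The list was drawn up with results of these data known, so its count is no independent evidence. KLF2, counted as higher, averaged 0.53 log2 CPM in BDD clones and -0.79 in FL clones. It passed the filter on low values through the BDD clones, so its call is no support. Among genes with a mean of at least 2 log2 CPM, 14 were higher and 2 lower. FOSB averaged 9.12 ± 0.23 log2 CPM in BDD clones and 5.00 ± 0.45 in FL clones (SD, n = 6 and 4; log2 difference 4.12, SE 0.18, limma adjusted p = 3.99e-09). ATF3, a stress-induced repressor of the ATF family, averaged 7.77 ± 0.19 in BDD clones and 6.13 ± 0.45 in FL clones (1.64, SE 0.17, limma adjusted p = 1.78e-05). JUND, the JUN protein with the most constant expression, averaged 8.34 ± 0.21 in BDD clones and 6.81 ± 0.15 in FL clones (1.53, SE 0.12, limma adjusted p = 4.11e-06). FOS averaged 6.91 ± 0.68 in BDD clones and 4.14 ± 0.45 in FL clones (2.77, SE 0.30, limma adjusted p = 2.36e-05). The 2 that fell were named after their values were seen: MYC (log2 difference -1.04, limma adjusted p = 0.0199) and KLF6 (-0.43, 0.0322), and these calls were lost in 2 and 6 of the 10 fits that each left out a clone.

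Genes reported as EGR1 targets, many of them from other cell types, also rose more often than they fell, with 10 of 20 tested higher and 3 lower, beside 16.1% of all genes higher and 16.5% lower, and a median of 0.38. The share that fell was thus near that of all genes. MMP14 and IGF2, counted as higher, had at most -0.50 and -0.42 log2 CPM in FL clones. They passed the filter on low values through the BDD clones, so their calls are no support. Among genes with a mean of at least 2 log2 CPM, 8 were higher and 3 lower. CD44, the hyaluronan receptor, averaged 4.90 ± 0.48 log2 CPM in BDD clones and 6.42 ± 0.19 in FL clones (SD, n = 6 and 4; -1.52, SE 0.21, limma adjusted p = 0.000139). ID2, an inhibitor of helix-loop-helix factors, averaged 8.98 ± 0.16 in BDD clones and 8.39 ± 0.16 in FL clones (0.59, SE 0.11, limma adjusted p = 0.00138).

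Few targets of EGR2 in Schwann cells and of NR4A receptors were measured, and the counts are too small to be read against the shares of all genes (16.1% higher and 16.5% lower). Of 7 Schwann cell targets tested, 1 fell and 1 was called higher. The last, ERBB3, a neuregulin receptor, averaged 0.65 log2 CPM in BDD clones and -0.29 in FL clones, and passed the filter on low values mainly through the BDD clones, so its call is no support; it was lost in 7 of 10 fits that left out a clone. Of 20 listed NR4A targets, 7 were tested. CCND2, a D-type cyclin, fell by 0.81 (SE 0.13, limma adjusted p = 0.00043), and ENO3, muscle enolase, and VIPR1, a receptor of vasoactive intestinal peptide, rose by 0.88 and 0.73 (limma adjusted p = 0.0357 and 0.0456), calls lost in 5 and 7 of those 10 fits. RXRA, the retinoid X receptor that can pair with NR4A1, averaged 5.59 ± 0.15 in BDD clones and 4.99 ± 0.26 in FL clones (SD, n = 6 and 4; 0.60, SE 0.14, limma adjusted p = 0.00452), while RXRB had a log2 difference of -0.06.

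Of 6 SRF cofactors, 2 were called higher and 1 lower. MRTFA, the actin-regulated cofactor, rose by 0.47 (limma adjusted p = 0.0385) and ELK1, the ERK-regulated cofactor, fell by 0.62 (0.0203), but neither passed once trends on level, GC content and length were removed (0.312 and 0.075). The other, MYOCD, the cofactor of heart and smooth muscle, averaged 0.69 log2 CPM in BDD clones and -0.50 in FL clones, and passed the filter on low values through the BDD clones, so its call is no support. Of 26 cytoskeletal SRF targets, 3 rose, 7 fell and 16 did not pass, beside 16.1% of all genes higher and 16.5% lower, with a median of -0.08. The 7 were 4 without FL clone 4, 7 or 9, near the share of all genes. ACTA2, smooth muscle actin, averaged 5.55 ± 0.42 log2 CPM in BDD clones and 3.90 ± 0.37 in FL clones (SD, n = 6 and 4; 1.64, SE 0.22, limma adjusted p = 0.000101). TGFB1I1, the focal adhesion protein Hic-5, rose by 1.30 (SE 0.23, limma adjusted p = 0.000859), and TAGLN2, transgelin 2, fell by 0.93 (SE 0.13, limma adjusted p = 0.000209).

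The kinases and factors that stand upstream were read beside 16.1% of all genes higher and 16.5% lower. Of 27 genes of the ERK cascade, 4 rose and 3 fell, near those shares, with a median of 0.02, and the 4 were 2 without BDD clone 2, 7 or 13 or FL clone 7 or 9. SOS2, a RAS exchange factor, rose by 0.66 (SE 0.14, limma adjusted p = 0.00311), and RPS6KA1, the kinase RSK1, rose by 0.68 (SE 0.15, 0.00321). Of 27 regulators of the CREB and MEF2 route, 9 rose and 1 fell, with a median of 0.19. HDAC7 and HDAC5, repressors of MEF2, rose by 0.68 and 0.69 (limma adjusted p = 0.00158 and 0.00252), and CRTC1, a CREB coactivator, rose by 0.54 (0.00676; 0.087 with trends removed). The 9 were 5 without FL clone 7 or FL clone 9. Of 22 genes of the decay machinery that acts on AU-rich mRNAs, as those of immediate early genes often are, 3 rose and 5 fell (3 without FL clone 4 or 9). CNOT9, a subunit of the CCR4-NOT deadenylase, fell by 0.87 (SE 0.11, limma adjusted p = 8.83e-05), HNRNPD, the AU-rich element binding protein AUF1, fell by 0.93 (SE 0.12, 9.96e-05), and CNOT4, a ubiquitin ligase of that complex, rose by 0.68 (SE 0.13, 0.00134).

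**Figure D4:**
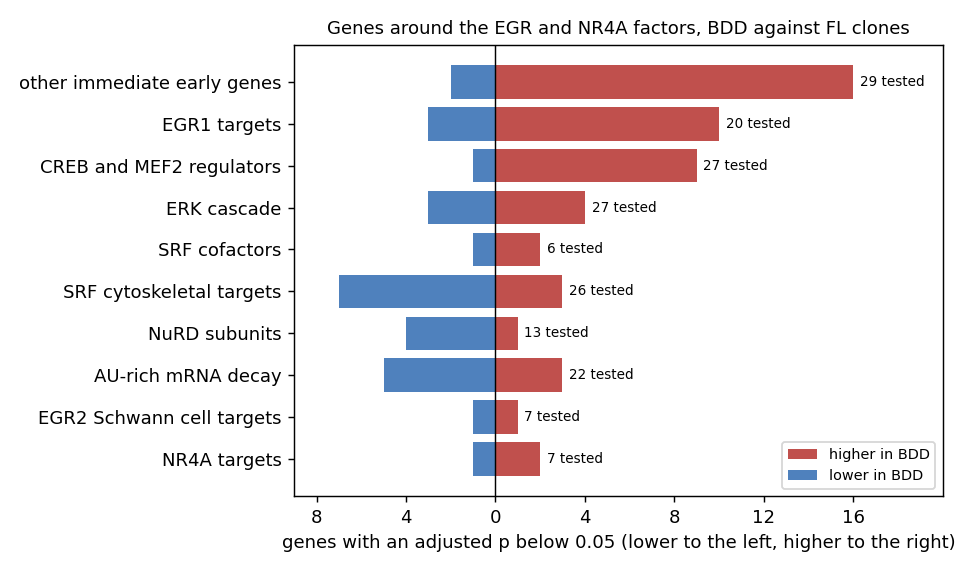
Number of genes with an adjusted p below 0.05 in 10 lists around the EGR and NR4A factors, with those higher in BDD clones to the right of 0 and those lower to the left, and the number tested beside each bar. The other immediate early genes have 16 higher and 2 lower, and the cytoskeletal SRF targets 3 higher and 7 lower.

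Some markers of cell identity moved in the same comparison. Of 10 HEK293 genes, 3 fell and 2 rose, beside 16.5% of all genes lower and 16.1% higher. The counts are too small to be read against those shares. The neurofilament genes NEFM (-1.79, limma adjusted p = 2.03e-05) and NEFL (-1.08, 8.82e-05) fell, and the keratin gene KRT8 rose (1.83, 0.000328). VIM also fell (-0.81, limma adjusted p = 0.0367), a call lost in 7 of 10 fits that left out a clone. The leukocyte markers PTPRC and CD3E were not in the table. The 4 detected markers of other cell types summed to between 7.68 and 16.8 CPM in BDD clones, between 3.54 and 7.05 CPM in FL clones, and 4.02 CPM in HEK 28. The part of these differences between clones in those of the EGR and NR4A genes was not tested.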

How the data were processed

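Total RNA libraries of HEK293 clones were sequenced on an Illumina instrument, per the labels' protocols. The tools named are Bowtie, TopHat2, cutadapt and FastQC, and the build is hg38, per the submitters' processing notes. Versions, the counting tool and the strand setting are not known here. The authors deposited log2 CPM per gene and library, as judged from the values, which were whole multiples of 1 read within 0.01 for 100% of values, above a prior of 2 reads. Whole reads were recovered from them.

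A clone's value was the mean of its 2 libraries. Genes at 1 CPM or more, the prior included, in at least 4 of 10 BDD and FL clones were kept, and 6 BDD clones were compared with 4 FL clones by limma 3.58.1 (trend, R 4.3.3), with Benjamini-Hochberg adjustment over 15611 genes. P-values measure the spread between these clones, which may be partly technical. Tables used Python 3.11.15, numpy 2.4.6, pandas 2.3.3, scipy 1.17.1 and matplotlib 3.10.9; GENCODE 29 gave positions. The members and lists were chosen with earlier results of these data known. Named genes are the 9 members, F8, up to 3 genes of smallest p per list, and the 3 genes most like EGR1, EGR2 and NR4A1 by each of 2 measures; some of these genes are not reported here. On simulated reads for this comparison, recovery was 37.3% (67 genes) at 1.5-fold, 85.1% (67 genes) at 2-fold and 100% (66 genes) at 4-fold, with 5.13% false calls. Relations of library differences used 100000 permutations. Alternatives covered scaling, prior, filter, limma-voom on reads, library blocks, single libraries, left-out clones, HEK 28 as an FL clone and removed trends.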

Additional observations from a re-analysis of the deposited data

How the results depend on the processing

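Of 216 values of the 9 genes' log2 differences over the alternatives, 214 moved by less than the spread between clones, 2 moved (SRF, -0.06 from libraries a alone and -0.36 from libraries b alone) and 0 reversed; NAB2, not called, changed sign (-0.18 to 0.24). Some of these values could not move. The filters, the clone as a random block and the letter as a replicate block leave the differences themselves unchanged (median of the 9 genes 1.45 in each). The fit without BDD clone 2 was also counted more than once. The count of 214 therefore overstates how far the differences were tried. Ranges were 2.07 to 2.40 for EGR1, 2.82 to 3.49 for EGR2, 2.73 to 3.01 for EGR3, 0.81 to 1.64 for NR4A1, 1.27 to 1.59 for NR4A2, 1.74 to 2.09 for NR4A3 and 0.17 to 0.41 for NAB1. Over all genes, libraries a alone gave 1468 higher and 1473 lower, and libraries b alone 1529 and 1521, with fewer libraries in the fit. With libraries as samples and the letter as a replicate block there were 3216 higher and 3183 lower; the letters did not pair samples between groups (mean correlation of deviations 0.0046 for the same letter and -0.0037 for different letters). The count of 2 other immediate early genes called lower was 1 with library totals as scaling, 1 with the clone as a random block, 1 with the letter as a replicate block, 0 from libraries a alone, 0 from libraries b alone, 0 without BDD clones 7 and 13, 1 without BDD clone 2, 0 with trends removed, and 0 to 2 when each clone was left out; the cause was not tested. Of 672 values of the list counts, 549 stayed within 1.5 times and 123 did not. The median BDD minus FL difference was 0.01, 0.04 with median of ratios and 0.06 with library totals. The highest adjusted p over the alternatives (limma) was 0.0644 for RXRA, 0.0616 for RPS6KA1 and 0.0697 for MBD2. Depth limits EGR2 and EGR4, which have few reads in FL clones.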
